A study of Homo sapiens with 16 samples.

Results

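Doxorubicin is an anthracycline that traps topoisomerase II on DNA and leaves double-strand breaks, and the response described here is that of control clones of SH-SY5Y, a neuroblastoma cell line of adrenergic type. The 8 libraries labelled Scr, of 16 in the series, were compared within themselves: 4 from cells given doxorubicin for 24 h and 4 from cells kept in regular medium. The sample protocols give 24 h for both, but the headers of the untreated libraries read 0h. If that is a harvest time, time in culture and the drug cannot be told apart. The libraries come from 2 single-cell clones, Scr13 and Scr16, each sequenced in 2 replicates per treatment. Both clones had been transfected with a Cas9 vector carrying a scrambled guide and with a donor vector holding GFP and puromycin markers, and had been passaged under puromycin, so the untreated and the treated cells share those steps. The other 8 libraries, from the TRPM2 knockout clones KO11 and KO28 made with the same donor vector, are used below for 1 comparison. Doxorubicin is given as 0.3 µM in the sample protocols, the dose that the study's legends also name for the RNA sequencing, and as 3 µM in the design text of the series. Gene positions are those of GENCODE 29 on GRCh38. Of the 26410 genes in the tables, 14378 had at least 1 normalized CPM (counts scaled to library size) in at least 4 of the 8 Scr libraries and were tested.

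The libraries held between 10481177 and 25086085 reads on genes. The 4 untreated libraries had 25086085, 17203411, 15839054 and 17330384 reads and the 4 treated libraries 16711477, 16035639, 10481177 and 15510693, so depth was on average lower after treatment, and its part in the results was not tested. A count of 0 allows up to 3 reads, or 0.118 to 0.285 normalized CPM, a limit that concerns counting alone. Within each clone and treatment the replicate libraries were further apart than sampling noise (chi-square of 12.4 to 14.4 for each gene). The study's methods call the replicates of a clone biological, and nothing in the labels says whether they came from separate cultures, so the p-values measure the spread between these libraries.

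The labels were checked first. Adrenergic markers were present in every Scr library, with 9 of 11 at 10 normalized CPM or more in all 8, among them HAND2 (between 1359.5 and 1765). TH, the first enzyme of catecholamine synthesis, was near 0 (at most 0.630 normalized CPM). Of the 4 Schwann cell and 3 immune cell markers in the tables, none reached 1 normalized CPM in all 8 libraries, and LYZ had 0 reads in each. Mesenchymal and fibroblast markers were present: 4 of 6 and 5 of 9 in the tables reached 1 normalized CPM in all 8 libraries, and COL3A1 ranged from 6.88 to 139, the highest in untreated Scr13 replicate 1. The part of such cells in the results was not tested. TRPM2, the gene deleted in the knockout clones, was near or under the 3-read floor in the untreated control clones too, with 0.118 and 0.115 normalized CPM in Scr13 and 0 in both Scr16 replicates. After doxorubicin it had 0.0594 and 0.0631 in Scr13 and 1.33 and 0.390 in Scr16, and it was too low to be tested. The 8 libraries labelled TRPM2 KO held between 0.658 and 2.23 normalized CPM, an order that goes against the label, but the knockout is described as a loss of the first coding bases with a frameshift, so reads on the rest of the gene do not check it. One treated library, Scr16 replicate 1, stood apart from the others. It lay at 34.1 on the first and 33.6 on the second principal component, where the other 3 treated libraries lay between 6.35 and 21.7 and between -25.7 and -5.08, and it was also the shallowest. Counts of called genes without it are given beside each gene group whose count it moved by 2 or more.

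Breaks in DNA activate the kinases ATM and ATR, which stabilise the transcription factor p53. p53 switches on genes that halt the cell cycle, repair DNA or kill the cell. Through p21 (CDKN1A) it keeps the pocket proteins on E2F sites, which lowers the genes of DNA synthesis. Genes of mitosis are lowered, later, through pocket proteins in the DREAM complex at sites of their own. SH-SY5Y is known as a line with functional p53.

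Doxorubicin changed 1774 of 14378 genes (12.3%) at a Benjamini-Hochberg adjusted p under 0.05 in limma with the clone as a block. Of these, 1021 rose (7.10% of the genes tested) and 753 fell (5.24%). Rises were larger than falls: 155 of the rises and 17 of the falls were at least 2-fold, and 16 rises and 0 falls at least 4-fold. The median change of the called genes was 0.53 among the rises and -0.37 among the falls on the log2(normalized CPM + 1) scale, which understates the change of low genes, and the median over all genes tested was -0.01. Of the genes tested, 31 passed the filter through the libraries of 1 treatment only, and 17 of these were called. Without the 31, 1004 of 14347 genes rose. The balance of rises and falls rests on the scaling: with library size alone 895 genes rose and 984 fell. Without Scr16 doxorubicin replicate 1, 1399 genes were called, 1246 of them among the 1774, and the sign of all 1774 was kept. Other single libraries weighed more: 1091 genes were called without Scr13 untreated replicate 2 (394 lower) and 1109 without Scr13 doxorubicin replicate 1 (405 lower). All further log2 fold changes are on this scale, treated minus untreated, and each adjusted p for the response is from limma with Benjamini-Hochberg adjustment over the 14378 genes.

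**Figure D1:**
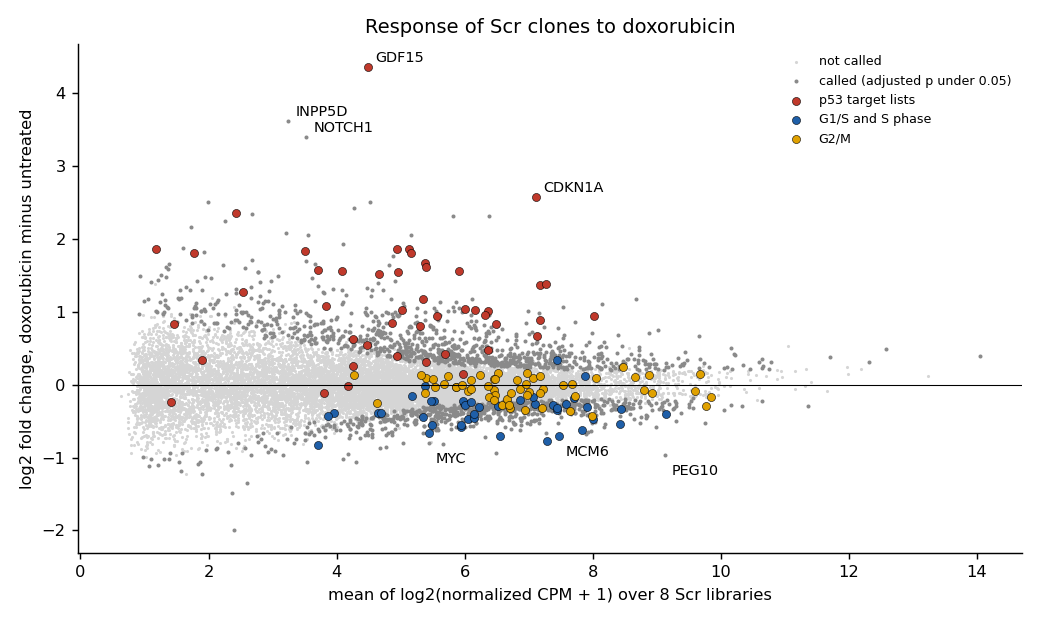
Each point is 1 of the 14378 genes tested, with its mean log2(normalized CPM + 1) over the 8 Scr libraries on the horizontal axis and its log2 fold change (doxorubicin minus untreated) on the vertical axis; dark grey points were called at an adjusted p under 0.05. The p53 targets (red) lie mostly above 0, up to GDF15 at 4.36, the G1/S genes (blue) mostly below 0, and the G2/M genes (yellow) around 0.

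Among genes with a mean log2(normalized CPM + 1) of at least 3 and no overlap of the groups within either clone, GDF15, a p53 target, had the largest rise and CDKN1A, another, the fourth largest. CDKN1A (ENSG00000124762, chr6:36676460-36687339, plus strand), which encodes the CDK inhibitor p21, had 75.1 and 46.9 normalized CPM in untreated Scr13, 42.3 and 63.8 in untreated Scr16, 340.3 and 365 in treated Scr13 and 304 and 340.3 in treated Scr16. The groups were far apart in both clones, and the mean rose 5.91-fold (log2 fold change 2.58, SE 0.12, limma adjusted p = 1.49e-10). GDF15 (ENSG00000130513, chr19:18374731-18389176, plus strand), a secreted stress cytokine of the TGF-beta family, had 4.76 and 2.48 normalized CPM in untreated Scr13, 4.91 and 4.03 in untreated Scr16, 148 and 119 in treated Scr13 and 66.4 and 86.9 in treated Scr16. The rise was 26-fold between the means, and the treated Scr13 libraries lay above the treated Scr16 libraries (log2 fold change 4.36, SE 0.21, limma adjusted p = 1.49e-10).

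The same rule named signalling and structural genes that are not on the p53 lists used here. INPP5D (ENSG00000168918, chr2:233059967-233207903, plus strand), which encodes the inositol phosphatase SHIP1 best known from blood cells, had 3.74 and 2.02 normalized CPM in untreated Scr13, 0.982 and 0.909 in untreated Scr16, 38.5 and 40.2 in treated Scr13 and 29.4 and 23.9 in treated Scr16. NOTCH1 (ENSG00000148400, chr9:136494433-136545786, minus strand), a receptor of the Notch pathway, had 2.79 and 2.53 normalized CPM in untreated Scr13, 0.982 and 4.88 in untreated Scr16, 50.9 and 37.8 in treated Scr13 and 30.3 and 29.8 in treated Scr16. INPP5D was at most 3.74 in the untreated and at least 23.9 in the treated libraries, and NOTCH1 at most 4.88 and at least 29.8 (3.62 and 3.40 on the log2 scale, limma adjusted p = 1.14e-09 and 5.34e-08). KITLG, the ligand of the receptor KIT, rose from 7.55 ± 1.89 to 45.4 ± 13.4 normalized CPM (mean ± SD, n = 4 libraries each), SCN4B, a sodium channel subunit, from 3.51 ± 0.421 to 18.3 ± 3.54 normalized CPM, and PLCD3, a phospholipase C, from 16.6 ± 1.38 to 72.9 ± 11.5 normalized CPM. DRAXIN, an axon guidance protein, rose from 4.86 ± 1.01 to 23.8 ± 7.16 normalized CPM and FLNC, the actin crosslinker filamin C, from 8.07 ± 2.49 to 33.2 ± 7.05 normalized CPM. The long noncoding RNAs TSPEAR-AS1 and TSPEAR-AS2, neighbours on the plus strand of chromosome 21, rose together, from 25.4 ± 8.43 to 129 ± 41.5 normalized CPM and from 37.5 ± 10.6 to 195 ± 67.4 normalized CPM. They overlap TSPEAR on the other strand, and whether strand was used in counting is not stated.

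PLCD3 and ACTA2 also overlap genes on the other strand, NMT1 and ACBD4 in the case of PLCD3. ACTA2 (ENSG00000107796, chr10:88935074-88991339, minus strand), smooth muscle actin, had 13.6 and 6.51 normalized CPM in untreated Scr13, 6.94 and 8.86 in untreated Scr16, 63.9 and 68.9 in treated Scr13 and 38.7 and 48.3 in treated Scr16. Its 5′ end overlaps FAS (ENSG00000026103, chr10:88990582-89015785, plus strand), the death receptor and p53 target on the other strand, which went from 0.835 ± 0.223 to 5.56 ± 1.61 normalized CPM. FAS was under 1 normalized CPM in all 4 untreated libraries and passed the filter only through the treated ones, so no test is given for it. With the use of strand not stated, reads of ACTA2 and FAS cannot be told apart where they overlap.

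Most p53 targets rose. Over 3 lists of known targets, 49 genes in all, 46 were tested, 38 rose (82.6%, against 7.10% of all genes tested) and 0 fell, and the median log2 fold change was 1.02 against -0.01 for all genes. FAS and TNFRSF10A are among the 38 and passed the filter only through the treated libraries. Without them 36 of 44 rose (81.8%), with a median of 1.01, and without Scr16 doxorubicin replicate 1 the 38 became 41 of 46. All 13 genes of cell cycle arrest and feedback rose, with a median of 1.38. MDM2, the ubiquitin ligase that degrades p53, had 115 and 101.2 normalized CPM in untreated Scr13, 110.2 and 95 in untreated Scr16, 185 and 199.6 in treated Scr13 and 181 and 217 in treated Scr16. It rose in every treated library (log2 fold change 0.89, SE 0.08, limma adjusted p = 6.54e-07), and PPM1D, the phosphatase WIP1 that switches the damage signal off, rose from 66.8 ± 5.37 to 119.6 ± 13.5 normalized CPM. The antiproliferative gene BTG2 rose from 17.6 ± 2.91 to 65.8 ± 4.58 normalized CPM and GADD45A, a growth arrest and repair gene, from 17.3 ± 1.82 to 52.4 ± 4.68 normalized CPM. ZMAT3, an RNA-binding p53 target, rose from 95.1 ± 13.5 to 248 ± 12.7 normalized CPM, and the polo-like kinases PLK2 and PLK3, which respond to stress, rose from 6.76 ± 1.78 to 21.9 ± 2.63 normalized CPM and from 9.05 ± 2.11 to 28.3 ± 4.07 normalized CPM. E2F7, a repressor E2F, was the smallest rise of the list (log2 fold change 0.39, SE 0.12, limma adjusted p = 0.0379) and lost its call without some single libraries, being kept in 1 of the 8 fits that left out 1 library.

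Among the apoptosis genes, 9 of 13 tested rose and 0 fell, with a median of 1.01, or 7 of 11 with a median of 0.95 without FAS and TNFRSF10A. BBC3, which encodes the BH3 protein PUMA, had 17.3 and 14.3 normalized CPM in untreated Scr13, 15 and 14 in untreated Scr16, 67.4 and 63.8 in treated Scr13 and 47.1 and 54.4 in treated Scr16, and the groups did not overlap (log2 fold change 1.86, SE 0.12, limma adjusted p = 5.66e-09). BAX, the pore-forming partner, rose from 56.6 ± 4.12 to 112 ± 18.4 normalized CPM, TNFRSF10B, the TRAIL receptor DR5, from 89.8 ± 15.4 to 233 ± 30.4 normalized CPM, and PHLDA3, an inhibitor of AKT, from 23.6 ± 5.23 to 73.6 ± 12.1 normalized CPM. TNFRSF10A, the other TRAIL death receptor, went from 0.354, 0.403, 0.0614 and 0 to 6.18, 5.30, 1.24 and 2.53 normalized CPM, and since all 4 untreated libraries were under 1 no test is given. The 4 genes not called were PMAIP1, which encodes the BH3 protein NOXA (-0.02), AIFM2 (-0.23), APAF1 (0.14) and TP53I3 (0.26). TP53I3 had 14.6 to 18.5 normalized CPM in the untreated Scr libraries. After treatment it had 23.6 and 23.3 in Scr13 and 12.8 and 22.7 in Scr16, the 12.8 in replicate 1, the library that stood apart. Without that library 10 of the 13 genes were called higher. PMAIP1 went from 17.3 ± 1.71 to 17.4 ± 4.56 normalized CPM. In the wider BCL2 family, which holds guardians and killers of the mitochondrial path, 3 of 14 rose (BBC3, BAX and BOK; 21.4% against 7.10% of all genes) and 1 fell (BID; 7.14% against 5.24%), with as few as 2 rises and 0 falls when 1 library was left out, while the survival genes BCL2, BCL2L1 and MCL1 had -0.13, -0.09 and -0.14 on the log2 scale and were not called.

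Repair, metabolic and other p53 targets rose in 16 of 20 cases, with 0 falls and a median of 0.98, and 18 rose without Scr16 doxorubicin replicate 1. DDB2, which recognises UV lesions, rose from 34.1 ± 4.63 to 103 ± 16.7 normalized CPM, and FDXR, a mitochondrial reductase, from 22.4 ± 1.58 to 75.1 ± 18 normalized CPM. The autophagy gene DRAM1 rose from 1.52 ± 0.939 to 11.5 ± 2.74 normalized CPM, SPATA18, a gene of mitochondrial quality control, from 5.06 ± 0.723 to 21.4 ± 6.75 normalized CPM, and EDA2R, a TNF receptor family member, from 18.5 ± 4.59 to 66.6 ± 10.5 normalized CPM. MDM4, which binds p53, and TP73, of the same family, were not called (0.01 each).

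**Figure D2:**
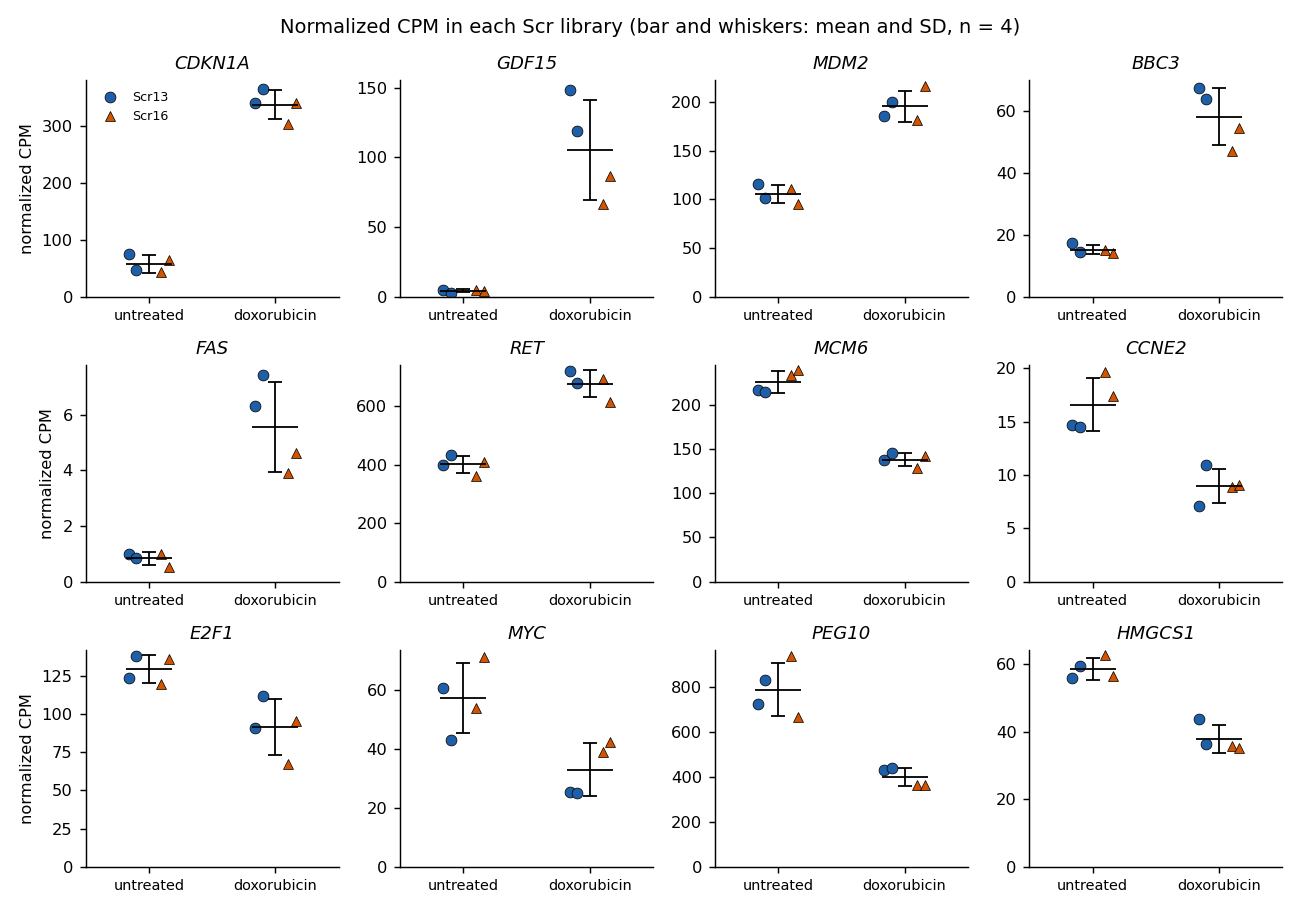
Normalized CPM of 12 genes in each Scr library, untreated on the left and doxorubicin on the right of each panel, with Scr13 as circles and Scr16 as triangles; bars and whiskers are the mean and SD of 4 libraries, and each vertical axis starts at 0. The treated and untreated groups do not overlap in any of the 12 panels, with CDKN1A, GDF15, MDM2, BBC3, FAS and RET higher and MCM6, CCNE2, E2F1, MYC, PEG10 and HMGCS1 lower after doxorubicin. FAS passed the filter only through the treated libraries, so its lack of overlap was fixed by the filter.

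Most genes of DNA synthesis fell, and most genes of mitosis were not called. Of 42 G1/S and S phase genes tested, 25 fell (59.5%, against 5.24% of all genes tested) and 1 rose, with a median log2 fold change of -0.34. Of 56 G2/M genes, 6 fell (10.7%) and 1 rose, with a median of -0.04. In bulk RNA, fewer cells in a phase and less RNA per cell cannot be told apart. Without single libraries the S phase genes that fell numbered between 19 and 25 (21 without Scr16 doxorubicin replicate 1), and the G2/M genes between 4 and 7.

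MCM6, a subunit of the replicative helicase, had 216 and 215 normalized CPM in untreated Scr13, 234 and 239.6 in untreated Scr16, 137 and 145 in treated Scr13 and 128 and 142 in treated Scr16. The 4 treated libraries lay within 128 to 145, below all untreated ones (log2 fold change -0.71, SE 0.07, limma adjusted p = 1.68e-06). MCM5, its partner, fell from 204 ± 14.3 to 121 ± 25.8 normalized CPM, MCM4 from 413 ± 15.6 to 286 ± 37.8 normalized CPM and MCM2 from 302 ± 19.3 to 219 ± 25.4 normalized CPM. CCNE2, the cyclin E2 that drives S phase entry, had 14.7 and 14.5 normalized CPM in untreated Scr13, 19.7 and 17.4 in untreated Scr16, 7.07 and 11 in treated Scr13 and 8.84 and 9.02 in treated Scr16 (log2 fold change -0.82, SE 0.18, limma adjusted p = 0.00424). RRM2, the ribonucleotide reductase subunit that makes DNA precursors, fell from 285 ± 16.9 to 186 ± 32.5 normalized CPM, CDC45, a helicase cofactor, from 54.1 ± 3.55 to 33.7 ± 3.26 normalized CPM, and UHRF1, which keeps DNA methylation through replication, from 121 ± 18.6 to 73.2 ± 11.1 normalized CPM. CDT1, the licensing factor, was the 1 gene of the list that rose (from 155 ± 16.8 to 199 ± 41.2 normalized CPM; log2 fold change 0.34, SE 0.10, limma adjusted p = 0.0333), although its groups overlapped. With each library left out in turn, CDT1 was not called in 6 of 8 fits. PCNA (-0.18), TYMS (0.12) and PRIM1 (-0.02) were not called.

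E2F1, the activator E2F, had 123 and 138 normalized CPM in untreated Scr13, 119.7 and 136 in untreated Scr16, 91 and 112 in treated Scr13 and 66.9 and 95.5 in treated Scr16 and fell in both clones (log2 fold change -0.52, SE 0.11, limma adjusted p = 0.00324). E2F2 fell from 89.7 ± 9.04 to 64.8 ± 9.56 normalized CPM. Of 20 genes of the E2F, RB and DREAM-MuvB group, 4 fell (E2F1, E2F2, RBBP4 and TFDP1; 20%, against 5.24% of all genes tested), 1 rose (E2F7; 5%, against 7.10%) and 15 were not called, among them FOXM1 (-0.07, limma adjusted p = 0.579) and MYBL2 (-0.28, adjusted p = 0.0736). Among 12 G1 cyclins, CDKs and their inhibitors, of which 16.7% rose and 8.33% fell, CDKN1A and CDKN1B (0.27, not called without Scr16 doxorubicin replicate 1) rose, CCNE2 fell, and CCND1, the most abundant of the list, went from 2345 ± 249 to 2258 ± 369 normalized CPM (-0.06, adjusted p = 0.748).

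PLK1, the mitotic polo-like kinase, had 121 and 137 normalized CPM in untreated Scr13, 142 and 119.9 in untreated Scr16, 118 and 116 in treated Scr13 and 165 and 161 in treated Scr16. It was lower in treated Scr13 than in untreated Scr13 and higher in treated Scr16 than in untreated Scr16, and was not called (log2 fold change 0.09, SE 0.09, limma adjusted p = 0.581). The two-sided exact permutation test of 4 libraries treated and 4 not treated gave p = 0.629 for PLK1. CDK1 (0.06), CCNB1 (-0.09), CKS1B (-0.14), CCNA2 (-0.06), AURKA (-0.03) and TOP2A (0.14) were not called either. The G2/M genes that fell were TMPO (-0.43), ANP32E (-0.36), CTCF (-0.35), BIRC5 (-0.32), CBX5 (-0.29) and LBR (-0.28). Most of these encode chromatin or nuclear envelope proteins, BIRC5 being the survivin subunit of the chromosomal passenger complex. NCAPD2, a condensin subunit, rose (0.24). It was not called in 4 of the 8 fits without 1 library. Replication-dependent histone genes, whose mRNAs mostly lack the poly(A) tail used for capture and which are near-identical copies, had 0 of 55 called in either direction.

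The promoters of these groups carry different short sequences, and a few are shown where the groups part. In RefSeq promoters on GRCh38.p14 (250 bases before to 50 after the start), both strands were searched for the E2F letters TTTCCCGC, TTTGGCGC and TTTCGCGC, the CHR element of mitotic genes (TTTGAA or TTCGAA) and CCAAT. E2F letters were in 17 of 32 S phase genes tested that had a promoter (53.1%), in 3 of 48 G2/M genes (6.25%), in 4.58% of all genes tested that had one and in 2.79% of all 27305 promoters. The 17 hold 12 of the 18 S phase genes that fell and also CDT1, which rose. The CHR was in 33 of 48 G2/M genes (68.8%), in 2 of 32 S phase genes (6.25%), in 10.7% of genes tested and in 16.6% of all promoters. CCAAT was common to both, in 21 of 32 and 34 of 48, against 36.8% and 35.7%. The letters are a description of the window and not of binding. Capitals mark the E2F letters on either strand in 5 S phase genes that fell, given 5′ to 3′ on the strand of the gene.
MCM6, chr2:135876507-135876610, minus strand: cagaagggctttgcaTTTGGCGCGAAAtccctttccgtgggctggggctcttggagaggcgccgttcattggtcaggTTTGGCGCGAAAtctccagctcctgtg
UHRF1, chr19:4909472-4909500, plus strand: aaatgccgagttttcGCGGGAAAaaaatc
CDCA7, chr2:173354792-173354829, plus strand: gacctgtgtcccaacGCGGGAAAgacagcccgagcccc
GINS2, chr16:85688963-85689000, minus strand: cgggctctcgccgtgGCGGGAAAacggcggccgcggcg
POLA1, chrX:24693766-24693803, plus strand: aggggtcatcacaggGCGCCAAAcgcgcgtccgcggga
MCM6 has overlapping E2F letters on both strands at a pair of places in its stretch. UHRF1, CDCA7 and POLA1 fell by 0.71, 0.58 and 0.46 on the log2 scale and GINS2 by 0.56. The next stretches hold the CHR in capitals, in CTCF, the 1 gene with a CHR among the G2/M genes that fell and had a promoter, and in 3 mitotic genes that were not called.
CTCF, chr16:67562365-67562400, plus strand: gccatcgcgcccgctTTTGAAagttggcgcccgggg
CDK1, chr10:60778155-60778190, plus strand: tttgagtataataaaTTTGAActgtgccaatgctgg
CKS1B, chr1:154974636-154974671, plus strand: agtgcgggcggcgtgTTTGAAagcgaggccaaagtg
PLK1, chr16:23678845-23678880, plus strand: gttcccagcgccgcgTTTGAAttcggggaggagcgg
The p53 site, taken as a pair of 10-base elements with up to 2 mismatches in all and up to 13 bases between them, was in 3 of the 32 p53 targets that rose and had a promoter (9.38%), against 2.36% of all genes tested that had one and 2.94% of all promoters. Those 3 are shown with both elements in capitals.
FDXR, chr17:74872995-74873035, minus strand: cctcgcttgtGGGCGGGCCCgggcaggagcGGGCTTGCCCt
AEN, chr15:88621296-88621335, plus strand: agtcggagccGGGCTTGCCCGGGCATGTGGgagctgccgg
GLS2, chr12:56488280-56488324, minus strand: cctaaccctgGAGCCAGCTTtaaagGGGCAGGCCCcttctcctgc
AEN, a nuclease of apoptosis, rose from 57.3 ± 5.34 to 117 ± 16.6 normalized CPM and GLS2, a mitochondrial glutaminase, from 2.96 ± 1.35 to 8.4 ± 2.82 normalized CPM. The 5 S phase genes were picked by size of change from the called members with the letters before the start. Genes on the chromosome that holds CCNE2 and MCM4 were not shown, so the 5 need not be the largest falls. Their values are a description. The p53 targets shown are all of those tested that hold the site.

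DNA repair genes fell in part, all of them by less than 2-fold. Of 32 genes of homologous recombination and the Fanconi path, 9 fell (28.1%, against 5.24% of all genes tested) and 0 rose, with a median of -0.26. NBN, a sensor of double-strand breaks, fell from 35.9 ± 2.05 to 22.3 ± 4.82 normalized CPM and BRCA1 from 142 ± 13.2 to 110.1 ± 12.2 normalized CPM. FANCD2 fell from 131 ± 2.09 to 109 ± 6.23 normalized CPM and kept its call in 4 of the 8 fits that left out 1 library. In end joining, the Ku subunits XRCC6 (-0.35) and XRCC5 (-0.22) and the kinase PRKDC (-0.31) fell, 3 of 10 genes. Of 17 checkpoint genes 5 fell (29.4%), among them CHEK1 (from 86.2 ± 6.12 to 64.9 ± 8.09 normalized CPM; log2 fold change -0.41, SE 0.09, limma adjusted p = 0.00724) and PARP1 (from 695 ± 22.8 to 555 ± 45.9 normalized CPM; log2 fold change -0.33, SE 0.07, limma adjusted p = 0.00387), while ATR (-0.05), ATM (-0.02) and WEE1 (-0.07) were not called. Without single libraries these counts were between 5 and 11 for recombination, with 5 without Scr13 doxorubicin replicate 1 and 6 without Scr16 doxorubicin replicate 1, and between 2 and 4 for checkpoint, with 2 without that library or without Scr16 doxorubicin replicate 1. TOP2A and TOP2B, the enzymes doxorubicin traps, went from 781 ± 82.3 to 859 ± 53.1 normalized CPM and from 398 ± 34.1 to 347 ± 9.14 normalized CPM and were not called, and TOP1 fell (-0.34).

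**Figure D3:**
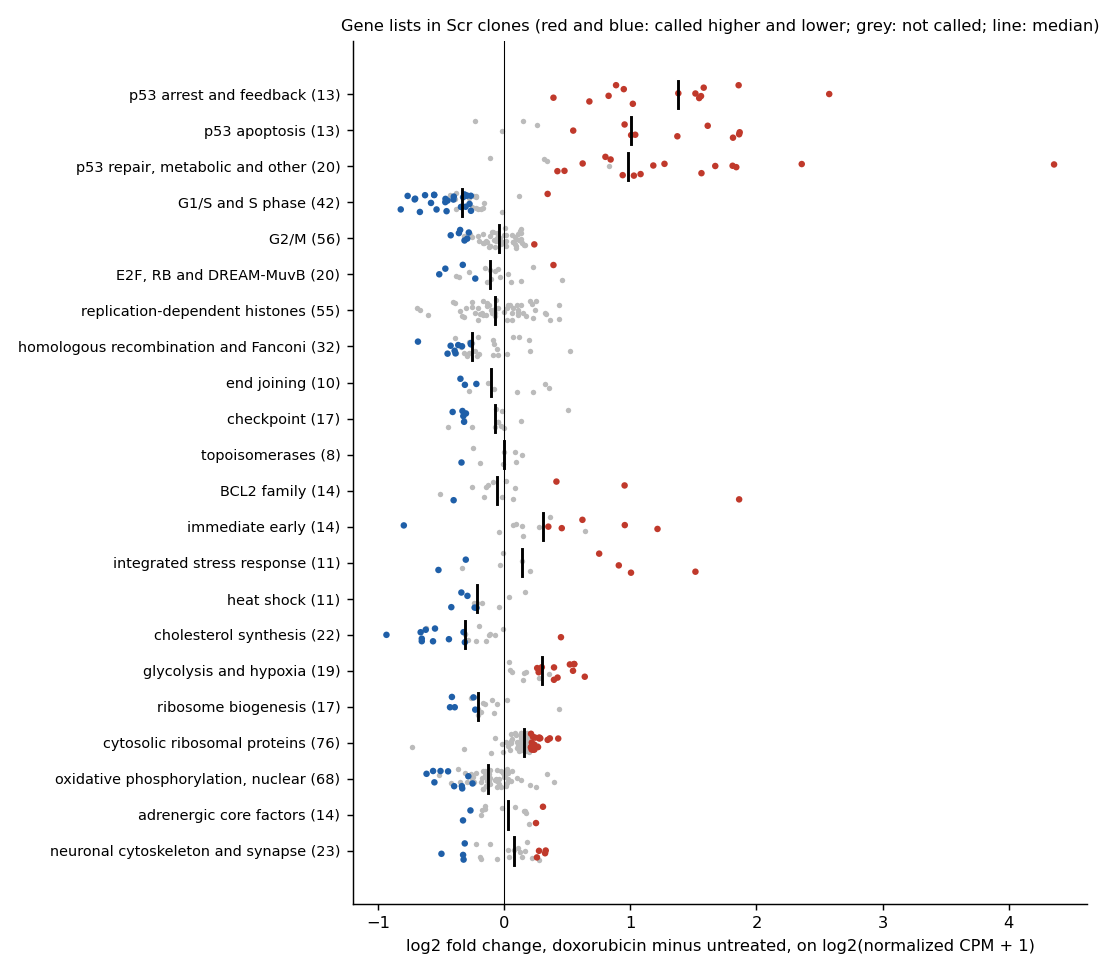
Log2 fold change (doxorubicin minus untreated) of every tested member of 22 gene lists, 1 row per list with the number tested in brackets; red and blue points were called higher and lower, grey points were not called, and the black line is the list's median. The 3 p53 lists have medians of 1.38, 1.01 and 0.98, the G1/S list one of -0.34 and cholesterol synthesis one of -0.31, while G2/M, histones and topoisomerases centre near 0.

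Of 9 genes of the MYC network 1 rose and 1 fell (11.1% each way, against 7.10% and 5.24% of all genes tested), with a median of 0.08. MYC, a transcription factor that drives cell growth, had 60.6 and 43 normalized CPM in untreated Scr13, 53.9 and 71.1 in untreated Scr16, 25.2 and 25 in treated Scr13 and 38.9 and 42.1 in treated Scr16 (log2 fold change -0.80, SE 0.13, limma adjusted p = 3.31e-04). Treated Scr13 libraries were the lowest, and MYCN was not called (0.08). MXI1, a MAX partner that opposes MYC, rose (0.41). The retrotransposon-derived gene PEG10, among the more abundant that fell, had 722 and 829 normalized CPM in untreated Scr13, 933 and 663 in untreated Scr16, 428 and 438 in treated Scr13 and 364 and 365 in treated Scr16, with every treated library below every untreated one (log2 fold change -0.97, SE 0.09, limma adjusted p = 7.77e-07). Other large falls were RASL11B, a RAS-like GTPase (from 27.4 ± 1.58 to 13 ± 4.06 normalized CPM), MAP2K6, a kinase of the p38 cascade (from 23.5 ± 1.2 to 11.2 ± 1.5 normalized CPM), MYB (from 11.6 ± 1.32 to 5.65 ± 1.94 normalized CPM), the neuroblastoma-linked LIM cofactor LMO3 (from 24.4 ± 4.47 to 12.1 ± 2.27 normalized CPM), SMAD6, an inhibitor of BMP signalling (from 66.7 ± 9.86 to 38.3 ± 10.8 normalized CPM), PIK3R3, a PI3 kinase subunit (from 42.6 ± 1.61 to 24.2 ± 4.21 normalized CPM) and the long noncoding RNA GATA2-AS1 (from 33.6 ± 3.31 to 18.4 ± 4.76 normalized CPM), while GATA2, which it overlaps, was not called (0.15). PEG10, LMO3 and CCNE2 also overlap genes on the other strand. These 12 rises and 12 falls, which were chosen for their size and lack of overlap, kept their call with any 1 library left out, as did 852 of all 1774 called genes.

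Of 22 genes of cholesterol synthesis and uptake, 10 fell (45.5%, against 5.24% of all genes tested) and 1 rose, with a median of -0.31. HMGCS1, the synthase early in the path, had 55.7 and 59.3 normalized CPM in untreated Scr13, 62.7 and 56.3 in untreated Scr16, 43.8 and 36.4 in treated Scr13 and 35.7 and 35 in treated Scr16. Every treated library lay below every untreated one (log2 fold change -0.62, SE 0.10, limma adjusted p = 3.42e-04). SQLE, the squalene epoxidase, fell from 74.6 ± 5.81 to 50.5 ± 2.05 normalized CPM, IDI1, an isomerase of the path, from 35.6 ± 2.62 to 22.5 ± 4.22 normalized CPM, and INSIG1, which senses sterols, from 23.3 ± 2.06 to 15.4 ± 1.9 normalized CPM. STARD4, a sterol carrier, was the gene that rose (0.45). It was not called in 3 of the 8 fits without 1 library. Of 19 glycolysis and hypoxia genes 11 rose (57.9%, against 7.10% of all genes tested) and 0 fell, with a median of 0.30. VEGFA, the vascular growth factor, had 138 and 125 normalized CPM in untreated Scr13, 129 and 135 in untreated Scr16, 198 and 209 in treated Scr13 and 176 and 188 in treated Scr16 (log2 fold change 0.54, SE 0.07, limma adjusted p = 4.04e-05). The mitophagy receptor BNIP3 rose from 109 ± 12.8 to 161 ± 16.7 normalized CPM, ALDOC from 35.6 ± 6.93 to 56 ± 11.5 normalized CPM and NDRG1 from 37.3 ± 3.6 to 55.8 ± 11 normalized CPM, whereas SLC2A1 (0.04) and LDHA (0.06) were not called. The count was 7 without Scr13 untreated replicate 2 and 8 without Scr16 doxorubicin replicate 1.

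Of 76 cytosolic ribosomal protein genes tested 20 rose (26.3%, against 7.10% of all genes tested) and 0 fell, with a median of 0.16. RPL28 rose most (0.43). This count rests on the scaling and on single libraries: it was 8 with scaling to library size alone, 8 without Scr16 doxorubicin replicate 1 and 4 without Scr13 doxorubicin replicate 1, and these genes have near-identical pseudogene copies, with which sharing of reads was not measured. Ribosomal protein genes took 5.36% and 4.54% of the reads in treated Scr13 against 4.47% and 4.45% in untreated Scr13, and 5.27% and 5.13% in treated Scr16 against 4.52% and 4.78%. Ribosome biogenesis factors went the other way, 5 of 17 fell (29.4%, against 5.24%; RRP1, GNL3, UBTF, NCL and NOP56), with 1 call left without Scr13 untreated replicate 2 and 2 without Scr16 doxorubicin replicate 1. Of 68 nuclear genes of oxidative phosphorylation 10 fell (14.7%, against 5.24%) and 0 rose, led by NDUFS6 (-0.62), NDUFB2 (-0.57) and ATP5MC1 (-0.55), with a median of -0.13, and 6 fell without Scr13 untreated replicate 1. Of the 13 mitochondrially encoded mRNAs, MT-CO1 rose (0.31) and MT-ND2 fell (-0.29), 1 of 13 each way (7.69%, near the share of all genes), and neither kept its call without Scr16 doxorubicin replicate 1.

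Of 14 immediate early genes 5 rose (35.7%, against 7.10% of all genes tested), with ARC (1.22), EGR1 (0.96) and NR4A1 (0.62) ahead of JUND and JUNB, and MYC fell. In the integrated stress response SESN2, also a p53 target (1.52), DDIT4 (1.00), CEBPB (0.91) and DDIT3 (0.75) rose and the serine and asparagine enzymes PHGDH (-0.52) and ASNS (-0.31) fell, with ATF4 itself at -0.04, so 4 of 11 rose (36.4%) and 2 fell (18.2%), or 3 and 1 without Scr16 doxorubicin replicate 1. Of 11 heat shock genes 5 fell, among them HSPH1 (-0.42) and HSPD1 (-0.34), and 0 rose (45.5% fell, against 5.24% of all genes tested), with 2 falls without Scr13 untreated replicate 2 and 3 without Scr16 doxorubicin replicate 1. Of 11 NRF2 targets FTL rose (0.35) and TXNRD1 (-0.31) and PRDX1 (-0.31) fell (9.09% higher and 18.2% lower). None of 9 interferon-stimulated genes or 5 NF-kB genes was called, nor was B2M (-0.15), the light chain of MHC class I, and 12 of the 21 interferon-stimulated and 6 of the 11 NF-kB genes in the tables were too low to be tested. NEAT1, the scaffold RNA of paraspeckles, rose from 88.7 ± 6.69 to 182 ± 40 normalized CPM, MALAT1 rose (0.49) and so did TP53TG1 (0.78), 3 of 8 stress-linked long noncoding RNAs (37.5%, with a median of 0.07). Of these 3 RNAs 1 was called without Scr13 untreated replicate 2 or without Scr13 doxorubicin replicate 1. DDIT3 and MALAT1 lost their calls without Scr16 doxorubicin replicate 1.

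Of 14 adrenergic core factors 2 rose and 2 fell (14.3% each way, against 7.10% and 5.24% of all genes tested): HAND2 (0.31) and KLF7 (0.25) rose and SOX11 (-0.33) and ISL1 (-0.27) fell. With 1 library left out, the rises were down to 1 in 5 of 8 fits and the falls in 6. GATA3 (0.16) and MYCN were not called. Of 11 genes of the catecholamine path 2 fell (18.2%) and 0 rose, with 7 of the 11 values above 0 and a median of 0.11. DDC, the decarboxylase that makes dopamine, fell from 132 ± 11.6 to 91 ± 15.8 normalized CPM and the noradrenaline transporter SLC6A2 from 296 ± 3.35 to 232 ± 21 normalized CPM, while the vesicle transporter SLC18A2 (0.44) and CHGB (0.30), a granule protein, were not called. Of 10 neuroblastoma receptors 3 rose and 1 fell, with a median of 0.13. RET, the receptor tyrosine kinase of the GDNF family ligands, had 401 and 433 normalized CPM in untreated Scr13, 363 and 410.1 in untreated Scr16, 723 and 679.7 in treated Scr13 and 695 and 614 in treated Scr16. It rose in both clones alike (0.75 in Scr13 and 0.76 in Scr16; log2 fold change 0.75, SE 0.07, limma adjusted p = 5.26e-07). ERBB2 (0.63) and NGFR (0.64) rose as well, and GFRA3, a GDNF family coreceptor, fell from a low level (from 3.71 ± 1.58 to 1.11 ± 0.773 normalized CPM). Without Scr16 doxorubicin replicate 1 the calls of GFRA3, NGFR and KLF7 were lost. Of 23 neuronal genes 4 rose (SYP, ELAVL3, ELAVL4 and STMN2) and 4 fell (NEFM, GAP43, MAP2 and SCG3), 17.4% each way, and the rises numbered 1 without Scr16 untreated replicate 2 and 2 without Scr16 doxorubicin replicate 1. Of 11 mesenchymal genes COL6A2 (from 114 ± 5.71 to 199.6 ± 25.8 normalized CPM), NOTCH3 (from 51.3 ± 4.68 to 89.4 ± 13.4 normalized CPM), COL6A1 (from 90.3 ± 9.16 to 133 ± 15.7 normalized CPM) and TWIST1 (0.22) rose (36.4%), and FN1, VIM, YAP1 and CD44 were not called (-0.56, -0.10, -0.01 and 0.95). The summed level of the mesenchymal genes was 1179.8, 787, 855 and 964 normalized CPM in the untreated and 1127, 991, 1259 and 1109.8 in the treated libraries, with TWIST1 the most abundant, and the part of such cells in these changes was not tested. Of 5 fibroblast genes tested THY1 fell (-0.37), and the 2 Schwann cell genes tested were not called.

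The responses of the clones were fitted side by side. Taken alone in the joint fit, 593 genes were called in Scr13 (396 higher, 197 lower) and 406 in Scr16 (299 higher, 107 lower). Of the 14378 genes, 0 (0%) were called for a difference between the responses of the clones in limma at an adjusted p under 0.05, with 524 genes (3.64%) at an unadjusted p under 0.05, and edgeR also called 0, with 466 at that level. Leaving out 1 library gave between 0 and 5 calls, the 5 without Scr13 untreated replicate 2. The log2 fold changes of the clones correlated across genes with r = 0.486, as a description over 14378 genes that are not independent and include many without a change. CDKN1A was at 2.55 in Scr13 and 2.60 in Scr16, and MCM6 at -0.61 and -0.81. The values of GDF15 (4.90 and 3.82) and KITLG (2.99 and 1.86) were higher in Scr13, without a call of the difference. The median over the G2/M list was -0.10 in Scr13 and -0.01 in Scr16, and over the G1/S list -0.30 and -0.42.

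**Figure D4:**
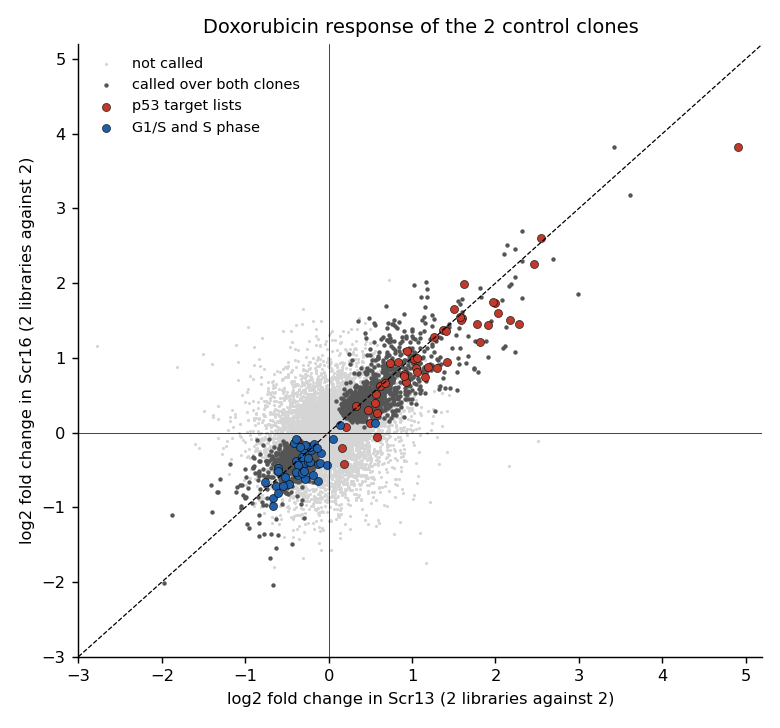
Log2 fold change (doxorubicin minus untreated) of each gene tested in Scr13 on the horizontal and in Scr16 on the vertical axis, 2 libraries against 2 in each; the dashed line marks equal values. The p53 targets (red) lie mostly in the upper right, with GDF15 at 4.90 and 3.82, below the line, and the G1/S genes (blue) mostly in the lower left.

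Set against the libraries labelled TRPM2 KO, the response of the Scr clones differed in 4 of 15325 genes (0.0261%; limma, interaction over 16 libraries with clone terms), and 1274 genes (8.31%) were at an unadjusted p under 0.05. TP53I3, a p53 target that encodes a quinone oxidoreductase, had 16 and 14.6 normalized CPM in untreated Scr13, 18.5 and 17.3 in untreated Scr16, 23.6 and 23.3 in treated Scr13 and 12.8 and 22.7 in treated Scr16. In the libraries labelled TRPM2 KO it went from 19.0 and 14.2 to 77.4 and 67.8 in KO11 and from 14.4 and 19.8 to 54.9 and 65.2 in KO28, so its response was 1.66 lower in Scr on the log2 scale (limma adjusted p = 7.16e-04, over the 15325 genes, as for the others here), a call kept without any 1 library. PLK1, which was not called in Scr, had a response of 0.09 in Scr and -0.64 in the libraries labelled TRPM2 KO (adjusted p = 0.0294). SLIT1, an axon guidance ligand, had 0.41 and -0.31 (adjusted p = 0.0294), and CXCL12, a chemokine, -0.60 and 1.39. CXCL12 was at or under 1.78 normalized CPM in all Scr libraries and entered the fit through the libraries labelled TRPM2 KO, where it is high, so its call carries no weight here. Those 3 calls were kept in 7, 6 and 5 of the 16 fits that left out 1 library. The median of the 56 G2/M genes was -0.04 in Scr and -0.35 in the libraries labelled TRPM2 KO, and PLK1 was the only one of them called for the difference. For the G1/S genes the medians were -0.34 and -0.40, and for the 3 p53 lists 1.38, 1.01 and 0.98 in Scr and 1.46, 1.32 and 1.14 in the libraries labelled TRPM2 KO.

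**Figure D5:**
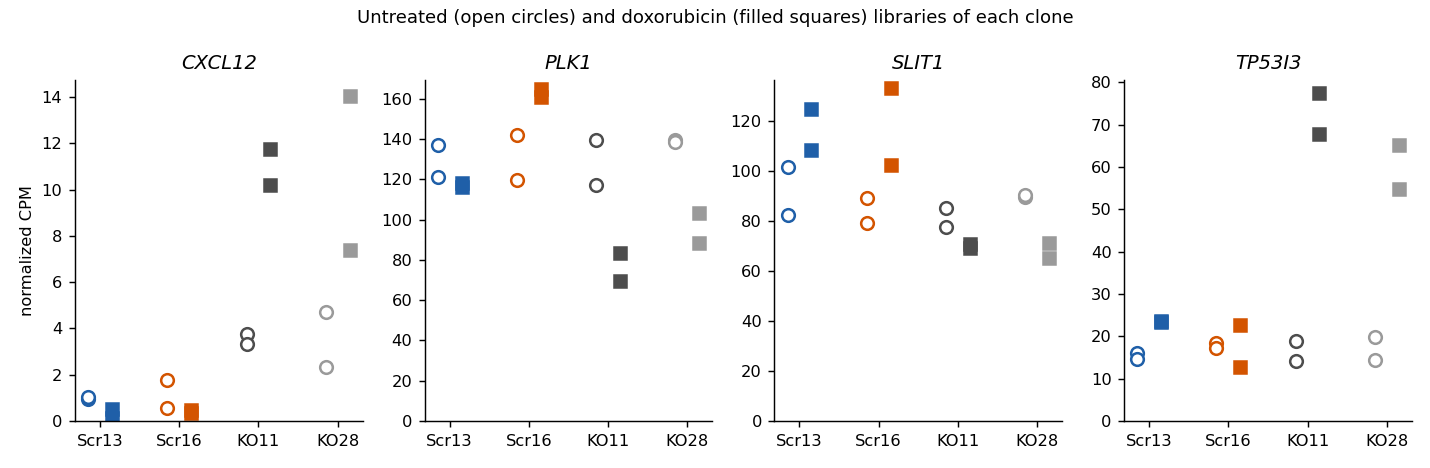
Normalized CPM of the 4 genes whose response differed between Scr and the libraries labelled TRPM2 KO, by clone; open circles are untreated and filled squares treated libraries, 2 of each per clone, and each vertical axis starts at 0. TP53I3 stays at or below 23.6 in the Scr clones and reaches 54.9 to 77.4 in the treated KO clones, while PLK1 is lower in the treated than in the untreated libraries of both KO clones.

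Calls were spread over genes of every size and were mostly protein coding. Of 12051 protein-coding genes 8.04% rose and 5.98% fell, against 2.68% and 1.04% of 1157 long noncoding genes and 1.52% and 1.4% of 856 pseudogenes. By genomic span, 10.6% of the 2173 coding genes under 10 kb rose and 5.02% fell, and of the 536 genes over 300 kb 5.97% rose and 4.48% fell. The median log2 fold change lay between -0.02 and 0.01 in each of the 5 classes of span. Groups of 4 treated and 4 untreated libraries did not overlap for 2460 genes (17.1% of those tested), of which 1259 were higher and 1201 lower after doxorubicin, and 1510 of them were called.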

How the data were processed

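SH-SY5Y poly(A) RNA libraries made with a directional kit were sequenced by the authors, and the submitters' processing notes name bcl2fastq, HISAT2 2.1.0, HTSeq, edgeR and GRCh38. The annotation release, and whether strand was used in counting, are not given in the sources used here. The deposited expression signal is reads scaled to effective library size (normalized CPM). Whole reads were recovered for 100% of values (tolerance 0.01 of a read), and the scaling factors were close to TMM factors computed over the 16 libraries together (mean absolute difference 0.00333, against 0.0102 within each table), so values were compared across the untreated and treated tables as deposited. The authors' own comparison columns in the deposited tables (log2 fold changes, p-values, q-values and a rank score) hold knockout against Scr contrasts and were not used.

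Responses were fitted with limma 3.58.1 (R 4.3.3, trend) on log2(normalized CPM + 1) with clone and treatment as terms, for genes reaching 1 normalized CPM in 4 or more of the 8 Scr libraries, with Benjamini-Hochberg adjustment and a threshold of 0.05. Differences between clones and between genotypes were interaction terms, the latter over 16 libraries. Single genes were also given a two-sided exact permutation test of 4 against 4, which is fixed at its smallest value, 0.0286, for the genes chosen for no overlap and is not quoted for them. Alternatives used edgeR 4.0.16 and DESeq2 1.42.0 on the recovered reads, other scalings, filters and pseudocounts, single clones and each library left out. The steps were tested on simulated data.

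The comparison, gene lists and tests were chosen with earlier results of these data known. Genes were named by rule: TRPM2, the genes named by the study, the 12 largest rises and 12 largest falls with a mean log2(normalized CPM + 1) of at least 3 and no overlap within either clone, up to 4 called members per list with the largest change, and the 5 largest differences between clones and between genotypes in each direction. The rule's clone and genotype differences that were not called are not all printed. Other list members named, mostly ones that were not called, and the promoter stretches other than those with a CHR were chosen after their values were seen. Of the stretches with a CHR, only that of CTCF came from the planned rule. Those of CDK1, CKS1B and PLK1 were added to it, as G2/M genes that the study names and that hold a CHR. Some genes that the rule names are not reported here. List members absent from the tables were not analysed here.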

Additional observations from a re-analysis of the deposited data

Results flagged for a closer look

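Among 256 groups of 4 libraries, 8 held 1 library far from the other 3, where chance gives about 1 group in 20. The value given is the gap to the nearest library as a share of the group's range. In untreated cells KITLG was low in Scr13 replicate 2 (4.72 normalized CPM against 8.31 to 8.69, share 0.903) and RASL11B was low in that library too (25.1 against 27.9 to 28.5, share 0.841). PLCD3 was high in untreated Scr13 replicate 1 (18.6 against 15.7 to 16.0, share 0.877), as was GAP43 (163 against 138 to 141, share 0.864). MAP2K6 was high in untreated Scr16 replicate 1 (25.3 against 22.7 to 23.1, share 0.857) and HSPH1 in untreated Scr16 replicate 2 (299 against 269 to 273, share 0.863). After doxorubicin HSPA4 was low in Scr13 replicate 1 (201 against 223 to 227, share 0.837) and CDC25A was high in Scr13 replicate 2 (71.7 against 60.7 to 60.8, share 0.994).

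The difference of the response, Scr minus the libraries labelled TRPM2 KO, passed the interaction test in limma for 4 genes. It was -1.98 on the log2 scale for CXCL12, -1.66 for TP53I3, 0.73 for PLK1 and 0.71 for SLIT1. CXCL12 entered that fit through the libraries labelled TRPM2 KO, where it is high.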

How the results depend on the processing

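The count of 1774 genes called after doxorubicin (1021 higher, 753 lower) stayed within 1.5 times under edgeR's quasi-likelihood test on recovered reads (1661, of which 1640 shared) and DESeq2 (2113). It was 831 (522 higher, 309 lower) without a filter, 850 (558 and 292) at an adjusted p under 0.01, 172 (155 and 17) with a fold of at least 2, 760 (507 and 253) in Scr13 alone and 264 (205 and 59) in Scr16 alone, both with fewer libraries. With reads summed per clone 1177 were lower. Library size alone as scaling gave 895 higher and 984 lower, 47.6% of calls higher against 57.6%, with the median of all genes moved by -0.02. Leaving out 1 library gave 1091 to 1760 calls, 697 to 941 higher and 394 to 819 lower, the lowest without Scr13 untreated replicate 2 (1091) and Scr13 doxorubicin replicate 1 (1109). The fall counts were 394 and 405 without those, 491 without Scr13 untreated replicate 1 and 499 without Scr16 untreated replicate 2. The cause of these shifts was not tested. Of the 1774 genes, 852 were called in all 8 such fits.

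Same-numbered replicates of the treatments did not deviate together (r = 0.0970 in Scr13 and 0.0386 in Scr16), so the numbers were not taken as pairs. With the replicate block 2129 genes were called (1181 higher, 948 lower), 2 for the difference between clones and 22 for that between genotypes.

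The difference between clones had 0 calls, and 0 to 5 with 1 library left out. That between Scr and the libraries labelled TRPM2 KO had 4 calls, 10 with edgeR, 1 at an adjusted p under 0.01, and 1 to 19 with 1 library left out (19 without Scr13 untreated replicate 2, 9 without Scr16 untreated replicate 1, and 1 without KO11 untreated or doxorubicin replicate 1). For single named genes, 2809 values under the alternatives kept direction and side of the threshold, 318 kept the direction and lost the call, and 6 gained it. The sign changed for 7, all of genes not called: PLK1 (-0.0028 to 0.17 with 1 library left out, below 0 without Scr16 untreated replicate 2, and -0.14 in Scr13 alone), CDK1 (-0.0084 to 0.10, below 0 without the same library, and -0.020 in Scr13 alone), ATR (-0.12 to 0.0017, above 0 without Scr13 doxorubicin replicate 2, and 0.030 in Scr16 alone) and CCNB1 (0.14 in Scr16 alone).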
